A study of Mus musculus with 12 samples.

Results

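The 34 genes described here are markers, transporters and transcription factors of the fibroblasts of the meninges, the membranes that cover the brain. They were chosen by name, with earlier results of these data known, and matched by symbol to the Ensembl identifiers of the count files. All 34 were found among the 55421 genes listed, and all 34 passed a minimum of more than 20 counts summed across libraries, the minimum for the 22592 genes tested.

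Poly(A) RNA from the hippocampus of 12 mice was sequenced, 1 library per animal and 3 animals per group. WT-Veh mice were wild type and received vehicle, WT-Nut3 mice were wild type and received Nutlin-3, KO-Veh mice were *Fmr1*-KO and received vehicle, and KO-Nut3 mice were *Fmr1*-KO and received Nutlin-3. Nutlin-3 blocks the ubiquitin ligase MDM2, and *Fmr1* is the gene lost in fragile X syndrome. Injections were intraperitoneal and given at 2 months of age, the animals were 6 months old at harvest, and all were of C57B/L6 background. The *Fmr1* mutation is constitutive, so that meningeal cells carry it as neurons do. The sources used here name no step that took the meninges or the choroid plexus off the tissue before it was frozen. Each library held between 17150820 and 20040482 reads on genes. Levels are given in CPM, counts scaled by library size with TMM factors, and always in the order of the animal numbers: RH2, RH5 and RH15 for WT-Veh, RH1, RH9 and RH14 for WT-Nut3, RH7, RH10 and RH16 for KO-Veh, and RH6, RH8 and RH13 for KO-Nut3.

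The meninges hold several layers of fibroblasts. Those of the pia lie on the brain surface and follow vessels into the tissue, and those of the arachnoid form a barrier between blood and cerebrospinal fluid that is sealed by junctions and lined with transporters for organic anions, cations, amino acids and sulfate. Forkhead factors such as FOXC1 are needed to form these layers, and the fibroblasts lay down a matrix of collagens and small proteoglycans. Since the hippocampus meets the pia along its fissure and faces a choroid plexus, hippocampal RNA can hold transcripts of both. In RNA of whole tissue, fewer cells of a type and less RNA per cell cannot be told apart.

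The labels were first checked against marker genes. *Fmr1* stood between 32.5 and 37.3 CPM in KO-Veh and between 28.5 and 35.7 CPM in KO-Nut3, below the wild-type libraries, which ranged from 75.2 to 79.5 CPM in WT-Veh and from 73.9 to 78.3 CPM in WT-Nut3, so that some *Fmr1* RNA was counted in every KO library. Genes of hippocampal neurons were present in every library, among them *Prox1*, the factor of dentate granule cells, at 91.9 to 137 CPM. The summed level of the 6 hippocampal neuron genes was lowest in KO-Nut3 RH6 at 477 CPM and lay between 630 and 804 CPM in the other libraries. In the same KO-Nut3 RH6, 7 thalamic genes summed to 224 CPM, against 62.8 to 83.3 CPM elsewhere. Each of 23 other meningeal fibroblast genes had at least 1 count in every library, which by itself does not show the cell type. Among them, the collagen chains *Col1a1* and *Col1a2* were lowest in WT-Nut3 RH14, at 4.60 and 5.38 CPM. Of the 34 members, 25 were above the floor of 3 counts in all 12 libraries. Several members are made by other cells too. As background, *Ptgds* is also transcribed in oligodendrocytes and choroid plexus, *Slc22a8* in endothelium and choroid plexus, *Slc13a4* in choroid plexus and *Tbx18* in mural cells.

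Compared per length, as mean RPKM over the 12 libraries, *Ptgds* was the highest member at 301 RPKM. It encodes prostaglandin D2 synthase, a carrier and enzyme secreted into cerebrospinal fluid. *Mgp*, encoding matrix Gla protein, followed at 9.20 RPKM, then the collagen-binding protein gene *Aebp1* at 5.63 RPKM and *Islr* at 5.25 RPKM. The organic anion transporter gene *Slc22a8* had 4.60 RPKM, the proteoglycan gene *Fmod* 3.76 RPKM and the sulfate transporter gene *Slc13a4* 3.44 RPKM. The lowest members were the transcription factors *Bnc2* at 0.0580 RPKM and *Tcf21* at 0.0473 RPKM. Most of the module was therefore rare RNA in these libraries, with *Ptgds* standing far above the rest.

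Without regard to group, the libraries differed from one another in this module more than in genes at large, which were not matched to the members in level. The module was not alone in this: the choroid plexus gene *Ttr* ranged from 3.15 CPM in KO-Veh RH7 to 4518 CPM in KO-Nut3 RH13. Over the 25 members above the floor in every library, the highest library exceeded the lowest by a median of 6.28-fold, against 1.45-fold over the 16978 genes of the whole series that met the same condition. *Fmod* was the most variable of these members, at 28.7-fold, and the hyaluronan-degrading factor *Cemip* the least, at 1.34-fold. *Prrx1* at 1.70-fold and *Meox1* at 1.98-fold, both homeobox genes, also varied little.

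KO-Nut3 RH8 was the highest of the 12 libraries for 22 of the 34 members, or 64.7%, while it was the highest for 7.74% of all genes tested. The 3 highest libraries were WT-Veh RH5, KO-Nut3 RH6 and KO-Nut3 RH8 for 20 of the 34 members, or 58.8%, and for 1.22% of all genes. These 20 members came from every functional group except the pair *Ranbp3l* and *Nupr1*, and among them were *Ptgds*, 6 transporters, *Foxc1*, *Fmod*, *Gjb2* and *Cdh1*. Of these libraries, WT-Veh RH5 was from a vehicle-treated wild type, and KO-Nut3 RH6 and KO-Nut3 RH8 were from treated *Fmr1*-KO mice. For *Angptl2*, *Dpep1* and *Tcf21*, or 8.82% of members, the 3 highest libraries were WT-Nut3 RH9, KO-Nut3 RH6 and KO-Nut3 RH13, as for 2.98% of all genes. Of these 3 members, *Dpep1* and *Tcf21* rest on few counts, 95 and 25 over all libraries. Only *Slc13a4* and *Coch* had their 3 highest values in the 3 KO-Nut3 libraries, an order held by 0.876% of all genes.

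**Figure D1:**
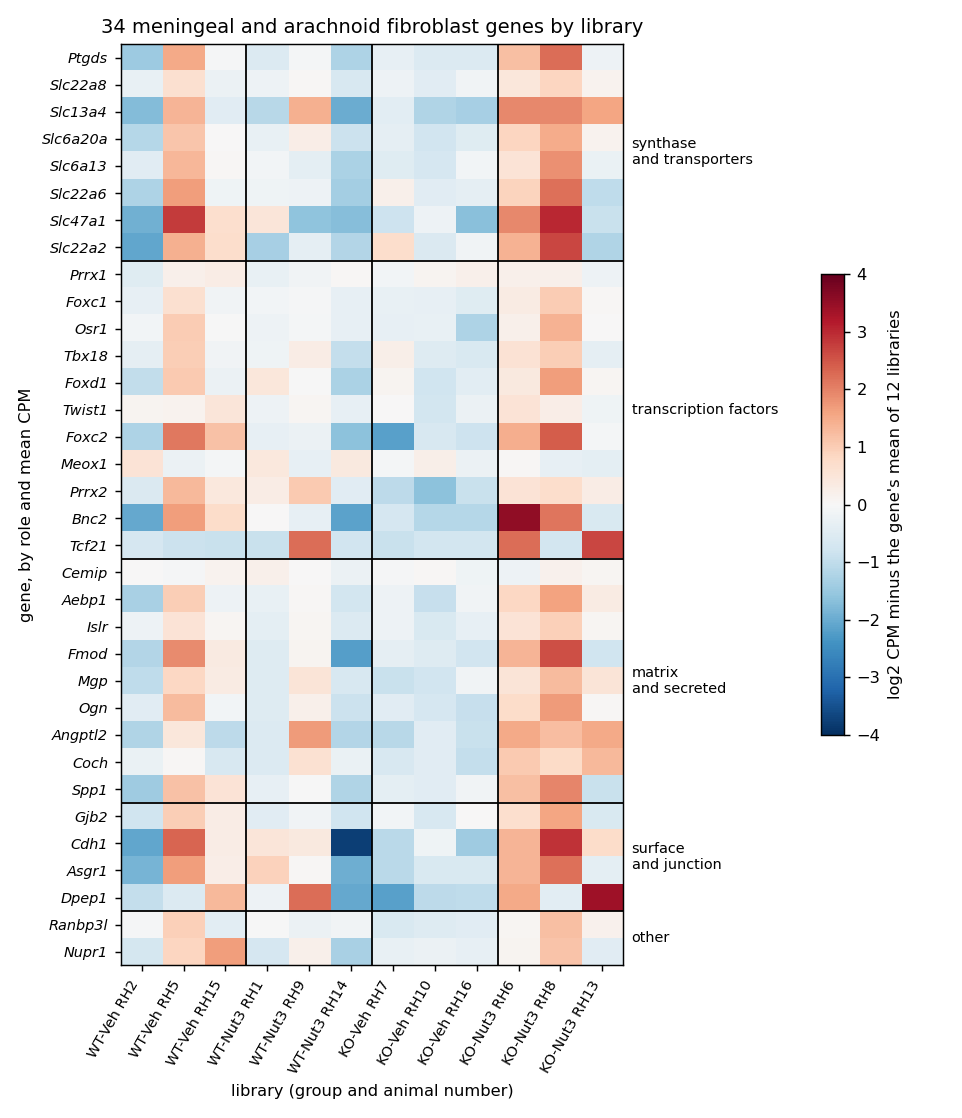
Each row is 1 of the 34 genes, ordered by role and mean CPM, and each column 1 library. Colour gives log2 CPM (1 count added) minus the gene's mean over the 12 libraries, from blue (lower) to red (higher). The columns of WT-Veh RH5, KO-Nut3 RH6 and KO-Nut3 RH8 are red over most of the rows, and the 3 KO-Veh columns are mostly pale blue.

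The summed level shows the same order. With *Ptgds* left out because of its weight, the other members summed to 143, 374 and 214 CPM in WT-Veh and to 178, 241 and 132 CPM in WT-Nut3. The sums were 170, 153 and 164 CPM in KO-Veh and 331, 512 and 246 CPM in KO-Nut3. KO-Veh was the even group, and its 3 libraries lay within the range of both wild-type groups, while the lowest KO-Nut3 library, RH13, lay near WT-Nut3 RH9 and below WT-Veh RH5. Within groups, the median ratio of the highest to the lowest library over members was 1.44 in KO-Veh, 2.21 in WT-Nut3, 2.55 in KO-Nut3 and 3.46 in WT-Veh. Over all genes above the floor, the corresponding medians were 1.18, 1.20, 1.24 and 1.20.

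In the WT-Veh group, RH5 was the highest library for 27 of 34 members. The same number, 27 of 34, had their highest KO-Nut3 value in RH8. Read directly against KO-Nut3 RH13, KO-Nut3 RH8 was higher for 30 of 34 members, with a median difference of 1.34 on the log2 scale, and the 4 members that were lower in it were *Angptl2*, *Coch*, *Dpep1* and *Tcf21*. WT-Veh RH5 was higher than WT-Nut3 RH9 for 28 of 34 members, and the 6 exceptions were those 4 with *Slc13a4* and *Cemip*. Of all genes tested, 49.0% and 51.1% were higher in the first library of these pairs.

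The comparison of KO-Nut3 with KO-Veh asked what differed in the *Fmr1*-KO hippocampus months after Nutlin-3. Of the 34 members, 3 were upregulated in KO-Nut3 past the threshold of 0.05 on the adjusted *P*-value of edgeR, namely *Slc13a4*, *Angptl2* and *Coch*, and none was downregulated. Over all 22592 genes, 0.195% were called higher. The fitted change was above 0 for 33 of 34 members, *Meox1* being the exception at -0.23, and its median was 1.43 on the log2 scale, against 0.00 over all genes. With the 3 members whose KO-Veh libraries were at the floor set to their lower bounds, that median was 1.39. An unadjusted *P*-value under 0.05 was reached by 27 members, all higher, and by 7.6% of all genes. The values of the 2 groups did not overlap for 19 members, all higher in KO-Nut3, where 7.85% of all genes did so. DESeq2 called 14 members, all higher, with 1.25% of its genes called higher. These were the 3 called by edgeR and *Slc6a20a*, *Slc22a8*, *Foxc1*, *Foxc2*, *Bnc2*, *Mgp*, *Ogn*, *Islr*, *Cdh1*, *Dpep1* and *Ranbp3l*.

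The count of 3 depended on the libraries in the fit. It was 11 without KO-Nut3 RH13, where 0.181% of all genes were called in either direction. It was 4 without KO-Nut3 RH6 (0.288% of all genes) and 4 without KO-Nut3 RH8 (1.18%). It was 2 without KO-Veh RH7, RH10 or RH16, where 0.0266%, 0.0266% and 0.0310% of all genes were called. The median change of the members was 0.91 without KO-Nut3 RH8, with 31 members above 0, and 1.74 without KO-Nut3 RH13. When all 12 libraries shared 1 estimate of the spread, 0 members were called and the median was 1.43.

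**Figure D2:**
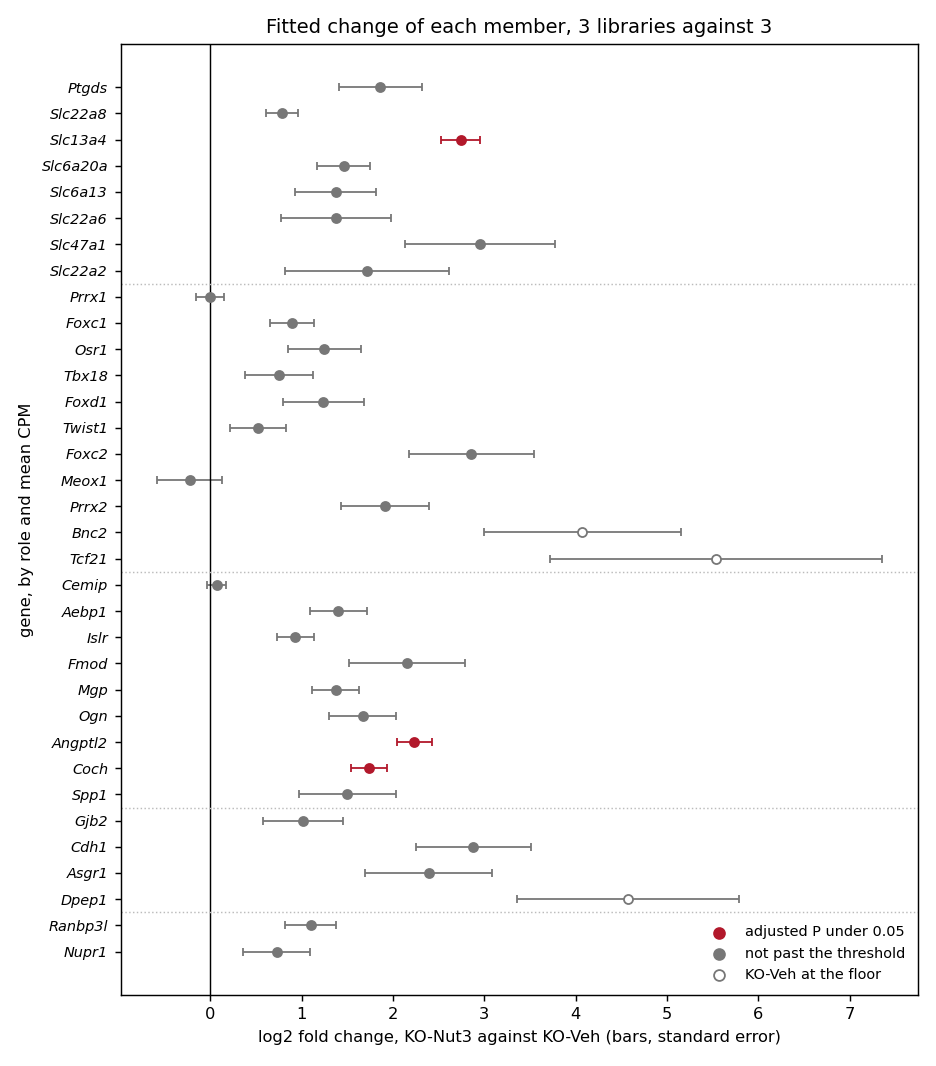
Points give the fitted log2 fold change of each member in KO-Nut3 against KO-Veh, 3 libraries against 3, with bars of 1 standard error, and the rows are ordered by role and mean CPM. The 3 red points, *Slc13a4*, *Angptl2* and *Coch*, are past the threshold, have short bars and lie at 1.74 to 2.74, while open points mark genes whose KO-Veh libraries were at the floor.

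Of the synthase and transporters, 1 of 8 passed the threshold and all 8 had a fitted change above 0, with a median of 1.59. *Slc13a4* (ENSMUSG00000029843, GRCm38 chromosome 6, 35267957 to 35308131, minus strand) encodes a sodium-coupled sulfate transporter. It stood at 2.87, 25.0 and 7.16 CPM in WT-Veh, 4.46, 26.1 and 2.41 CPM in WT-Nut3, 7.28, 4.23 and 3.82 CPM in KO-Veh, and 36.6, 37.3 and 29.4 CPM in KO-Nut3. The KO-Nut3 libraries were alike and above all other 9, and WT-Veh RH5 and WT-Nut3 RH9 came next. The log2 fold change of *Slc13a4* in KO-Nut3 against KO-Veh was 2.74 with a standard error of 0.213 (edgeR, adjusted *P*-value 0.00144), and it remained past the threshold in each of the 6 fits that left out 1 library.

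*Ptgds* (ENSMUSG00000015090, chromosome 2, 25466709 to 25470046, minus strand) had 134, 1047 and 354 CPM in WT-Veh, 252, 346 and 153 CPM in WT-Nut3, 294, 249.7 and 248 CPM in KO-Veh, and 836, 1724 and 319 CPM in KO-Nut3. All 3 KO-Nut3 values were above KO-Veh, RH13 only by a little, but WT-Veh RH5 was the second highest library of all. Its log2 fold change of 1.86 (standard error 0.455) did not pass the threshold in edgeR, at an adjusted *P*-value of 0.215. Leaving out KO-Nut3 RH8 gave 1.12 and leaving out KO-Nut3 RH13 gave 2.28, the only one of these fits in which *Ptgds* passed (adjusted *P*-value 0.0148).

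*Slc22a8*, encoding organic anion transporter OAT3, had 13.97, 26.5 and 14.7 CPM in WT-Veh, 14.96, 17.9 and 10.99 CPM in WT-Nut3, 14.9, 12.5 and 15.5 CPM in KO-Veh, and 23.6, 31.3 and 19.0 CPM in KO-Nut3. KO-Nut3 lay above KO-Veh and above WT-Nut3 without overlap, but not above WT-Veh. Its log2 fold change against KO-Veh was 0.78 (adjusted *P*-value 0.153 in edgeR, 0.00254 in DESeq2). The remaining transporters, for GABA and related amino acids (*Slc6a13*), proline (*Slc6a20a*), organic anions (*Slc22a6*) and cations (*Slc22a2*, *Slc47a1*), had fitted changes of 1.37 to 2.95, and none passed in edgeR. Without KO-Nut3 RH8 these were 0.60 for *Slc6a13*, 1.07 for *Slc6a20a*, 0.40 for *Slc22a6*, 0.59 for *Slc22a2* and 2.01 for *Slc47a1*. Of the exon bases of *Slc6a20a*, 14.9% are shared with other genes, among them *Ccr9*, and the counts do not separate strands.

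Of the 11 transcription factors, edgeR called none, DESeq2 called *Foxc1*, *Foxc2* and *Bnc2*, and 10 had a fitted change above 0, with a median of 1.24. Several of them, *Prrx1*, *Prrx2*, *Bnc2*, *Tcf21*, *Tbx18*, *Twist1* and *Meox1*, were singled out by the study from these same libraries, as *Angptl2* was, and are not independent of them. *Slc13a4* headed the study's own list for KO-Nut3 against KO-Veh. The counts of members called in that comparison are therefore not independent support. *Prrx1*, a paired-type homeobox gene of mesenchyme, had 6.81, 10.9 and 11.6 CPM in WT-Veh, 7.71, 8.64 and 9.81 CPM in WT-Nut3, 8.72, 10.3 and 10.9 CPM in KO-Veh, and 10.8, 10.9 and 8.23 CPM in KO-Nut3. All 4 groups overlapped, and the log2 fold change of *Prrx1* in KO-Nut3 against KO-Veh was 0.00 with a standard error of 0.154.

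*Foxc1*, the forkhead gene of meningeal development, had 5.01, 9.92 and 5.77 CPM in WT-Veh, 5.88, 6.11 and 5.10 CPM in WT-Nut3, 5.21, 5.07 and 4.56 CPM in KO-Veh, and 8.04, 13 and 6.64 CPM in KO-Nut3. KO-Nut3 did not overlap with KO-Veh or WT-Nut3, and WT-Veh RH5 was again among the highest. The log2 fold change against KO-Veh was 0.89 with a standard error of 0.2395 (adjusted *P*-value 0.273 with edgeR, 0.0411 with DESeq2), and it was 0.56 without KO-Nut3 RH8. The other factors of the group had fitted changes of 0.53 (*Twist1*) to 2.86 (*Foxc2*), leaving aside *Meox1* and the genes at the floor. With 1 library left out, the lowest were 2.14 for *Foxc2*, 1.67 for *Prrx2*, 0.67 for *Osr1*, 0.58 for *Foxd1*, 0.43 for *Tbx18* and 0.34 for *Twist1*. *Bnc2* had at most 2 counts in each KO-Veh library, and its mean in KO-Nut3 was at least 8.13-fold higher than the floor, with 2.88 CPM in RH6, 1.03 CPM in RH8 and 0.110 CPM in RH13. *Tcf21* had no count in any WT-Veh or KO-Veh library and was detected in WT-Nut3 RH9 at 0.397 CPM, KO-Nut3 RH6 at 0.388 CPM and KO-Nut3 RH13 at 0.549 CPM. It had 25 counts in all and passed the minimum only through KO-Nut3, which held 7, 0 and 10 of them. Its higher level there was fixed by that minimum, and it supports nothing in the counts of members above 0.

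Of the 9 matrix and secreted genes, 2 passed the threshold and all 9 had a fitted change above 0, with a median of 1.5. *Angptl2*, encoding an angiopoietin-like secreted glycoprotein, had 1.79, 5.83 and 2.01 CPM in WT-Veh, 2.89, 13.9 and 1.85 CPM in WT-Nut3, 1.96, 3.10 and 2.28 CPM in KO-Veh, and 12.3, 10.02 and 12.3 CPM in KO-Nut3. The KO-Nut3 values were close to each other and above both vehicle groups, but the highest of all 12 was WT-Nut3 RH9. *Angptl2* passed in edgeR with an adjusted *P*-value of 0.00254 and a log2 fold change between 2.09 and 2.44 in the 6 fits without 1 library, past the threshold in each.

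*Coch* (ENSMUSG00000020953, chromosome 12, 51593341 to 51605771, plus strand) encodes cochlin, a secreted matrix protein best known from the inner ear. It had 4.12, 5.09 and 3.19 CPM in WT-Veh, 3.35, 7.65 and 4.09 CPM in WT-Nut3, 3.15, 3.61 and 2.51 CPM in KO-Veh, and 10.3, 8.47 and 12.2 CPM in KO-Nut3. Every KO-Nut3 library was above the other 9, of which WT-Nut3 RH9 was the highest. The log2 fold change of *Coch* against KO-Veh was 1.74 with a standard error of 0.196 (edgeR, adjusted *P*-value 0.0117). It lost the threshold whenever a KO-Veh library was left out, with adjusted *P*-values of 0.112, 0.0938 and 0.0848 in edgeR without RH7, RH10 and RH16.

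**Figure D3:**
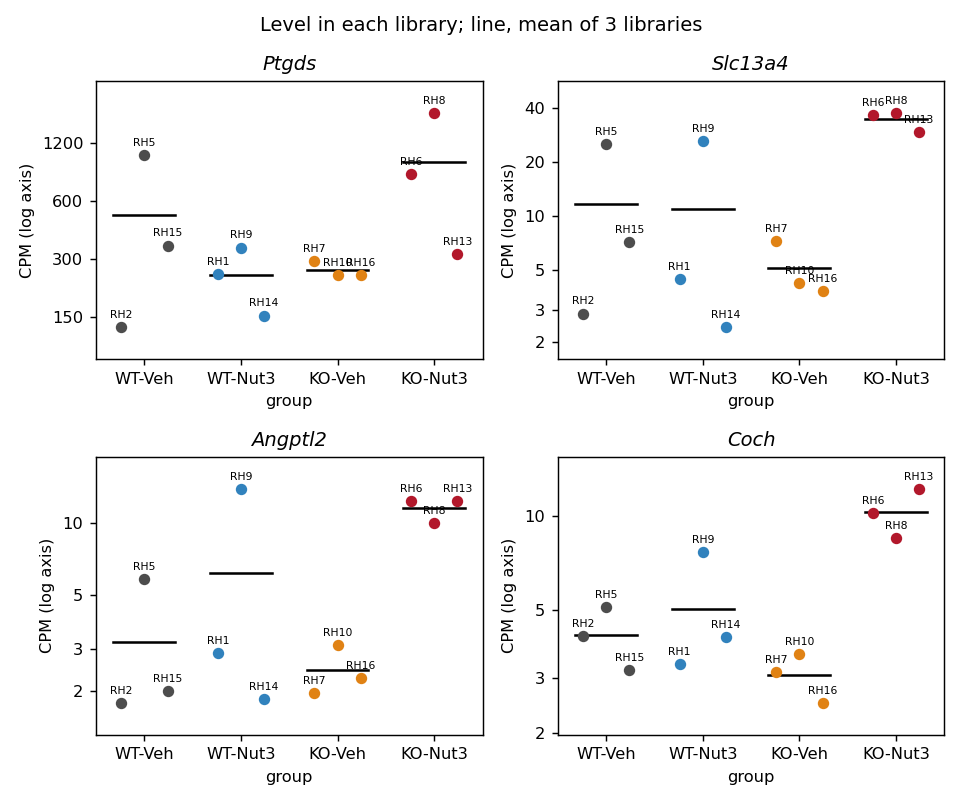
CPM of *Ptgds*, *Slc13a4*, *Angptl2* and *Coch* in each library on log axes, by group, with a line at the mean of 3 libraries and the animal number above each point. *Ptgds* in WT-Veh RH5 (1047 CPM) exceeds KO-Nut3 RH6 and RH13, and *Angptl2* peaks in WT-Nut3 RH9 (13.9 CPM), while for *Slc13a4* and *Coch* the 3 KO-Nut3 points are the highest.

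*Cemip*, whose product takes part in breaking down hyaluronan, had 40.1, 38.2 and 43.6 CPM in WT-Veh, 45.3, 39.9 and 33.7 CPM in WT-Nut3, 38.0, 41.0 and 35.3 CPM in KO-Veh, and 34.5, 44.1 and 41.7 CPM in KO-Nut3. It was the second most abundant member in CPM, and its groups overlapped throughout, with a log2 fold change of 0.07 (standard error 0.103) in KO-Nut3 against KO-Veh. *Aebp1* had 7.88, 38.4 and 16.99 CPM in WT-Veh, 15.7, 19.96 and 11.5 CPM in WT-Nut3, 16.8, 10.3 and 17.8 CPM in KO-Veh, and 34.5, 59.95 and 24.2 CPM in KO-Nut3. KO-Nut3 lay above KO-Veh and WT-Nut3, and the log2 fold change of *Aebp1* against KO-Veh was 1.402 (adjusted *P*-value 0.153 in edgeR).

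*Islr*, a leucine-rich repeat gene of stromal cells, had 11.6, 19.6 and 14.2 CPM in WT-Veh, 10.2, 14.2 and 9.14 CPM in WT-Nut3, 11.6, 8.79 and 10.7 CPM in KO-Veh, and 19.6, 25.7 and 14.1 CPM in KO-Nut3. Its KO-Nut3 libraries were above KO-Veh, and RH13 was just under WT-Nut3 RH9. The log2 fold change against KO-Veh was 0.93 (adjusted *P*-value 0.1495 in edgeR), and 6.74% of its exon bases are shared with *Islr2*. The proteoglycan genes *Fmod* and *Ogn*, the gene *Mgp* and the osteopontin gene *Spp1* had fitted changes of 1.38 to 2.15 without passing in edgeR. Without KO-Nut3 RH8 these were 1.19 for *Fmod*, 1.11 for *Ogn*, 1.07 for *Mgp* and 0.84 for *Spp1*. *Fmod*, named here because of its spread, ranged within KO-Nut3 from 4.56 CPM in RH13 to 48.2 CPM in RH8. Of the exon bases of *Spp1*, 18.8% are shared with another gene.

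Of the 4 surface and junction genes, edgeR called none, DESeq2 called *Cdh1* and *Dpep1*, and all 4 had a fitted change above 0. *Gjb2*, encoding the gap junction protein connexin 26, had 3.40, 11.8 and 7.36 CPM in WT-Veh, 4.31, 5.46 and 3.42 CPM in WT-Nut3, 5.52, 3.83 and 6.09 CPM in KO-Veh, and 9.59, 17.8 and 3.90 CPM in KO-Nut3. KO-Nut3 RH13 lay within KO-Veh, and the log2 fold change of *Gjb2* was 1.01 (adjusted *P*-value 0.634 in edgeR), 0.38 without KO-Nut3 RH8 and 1.41 without KO-Nut3 RH13. *Cdh1*, encoding E-cadherin, a junction protein of the arachnoid barrier, had 0.119, 3.78 and 0.875 CPM in WT-Veh, 1.01, 0.944 and 0 CPM in WT-Nut3, 0.310, 0.620 and 0.228 CPM in KO-Veh, and 1.88, 5.55 and 1.21 CPM in KO-Nut3. The order of *Cdh1* was KO-Nut3 RH8, WT-Veh RH5 and KO-Nut3 RH6, and its log2 fold change against KO-Veh of 2.88 (standard error 0.631) was called by DESeq2 but not by edgeR (adjusted *P*-value 0.1495). *Dpep1*, a membrane dipeptidase gene, had at most 1 count in each KO-Veh library, and its KO-Nut3 mean was at least 6.24-fold higher than the floor. That mean rested mostly on RH13, with 0.610 CPM in RH6, 0.115 CPM (2 counts) in RH8 and 2.36 CPM in RH13. WT-Nut3 RH9 had 1.04 CPM.

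*Ranbp3l*, which encodes a nuclear export factor for SMAD proteins, had 8.89, 17.9 and 6.80 CPM in WT-Veh, 9.02, 7.70 and 8.35 CPM in WT-Nut3, 6.04, 6.42 and 6.72 CPM in KO-Veh, and 9.59, 21.3 and 10.4 CPM in KO-Nut3. KO-Veh was the lowest group for this gene, with every library below all 9 others, and KO-Nut3 was above WT-Nut3. *Nupr1*, a stress-induced chromatin protein gene, had 1.79, 5.36 and 9.42 CPM in WT-Veh, 1.83, 3.43 and 1.18 CPM in WT-Nut3, 2.37, 2.48 and 2.33 CPM in KO-Veh, and 3.22, 6.59 and 2.14 CPM in KO-Nut3. Its highest library was WT-Veh RH15, and KO-Nut3 overlapped with KO-Veh. Neither gene passed in edgeR, at log2 fold changes of 1.10 and 0.73 in KO-Nut3 against KO-Veh (adjusted *P*-values 0.242 for *Ranbp3l* and 0.698 for *Nupr1*). DESeq2 called *Ranbp3l*. Without KO-Nut3 RH8 the changes were 0.64 and 0.15.

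KO-Veh was compared with WT-Veh to read the effect of genotype without treatment. No member was called in edgeR, where 0.0177% of all genes were. DESeq2 called none either (0.174% of its genes), with 5 members at an unadjusted *P*-value under 0.05, against 4.41% of all genes. The fitted change was below 0 for 32 members, above 0 for *Prrx1* alone, and could not be given for *Tcf21*, which had no counts in either group, and the median was -0.79, also with *Bnc2* and *Dpep1* at their bounds. An unadjusted *P*-value under 0.05 was reached by 14 members in edgeR and by 7.2% of all genes. KO-Veh was lower without overlap for 7 members, and 6.46% of all genes were. Without WT-Veh RH5 the median was nearer 0, at -0.23, and 9 members were higher in KO-Veh.

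Nutlin-3 in wild-type mice was read from WT-Nut3 against WT-Veh, which shares WT-Veh with the comparison before. No member was called in edgeR or in DESeq2, and neither was any other gene (0%). The median fitted change was -0.45, 5 members were higher in WT-Nut3, and 5 fell under 0.05 before adjustment, against 3.17% of all genes. Without WT-Veh RH5 the median was 0.03 and 18 members were higher, and without WT-Nut3 RH9 the median was -0.81 and 1 member was higher. No member separated the 2 groups in either direction, where 3.6% of all genes were higher and 3.92% lower.

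KO-Nut3 was also set against WT-Veh and against WT-Nut3, which share the KO-Nut3 libraries with each other and with the comparison to KO-Veh. Against WT-Veh, no member was called in edgeR (0.00443% of all genes), and 4 fell under 0.05 before adjustment, all higher, against 9.17% of all genes. DESeq2 called 2, *Angptl2* and *Coch*, with 0.904% of all genes called higher. The median was 0.56 with 29 members higher, and it was -0.02 with 16 higher without KO-Nut3 RH8. The groups did not overlap for *Slc13a4*, *Angptl2* and *Coch*, all higher in KO-Nut3, and for 7.92% of all genes in that direction. *Slc13a4*, *Angptl2* and *Coch* had log2 fold changes of 1.55, 1.84 and 1.32 here (adjusted *P*-values 0.431, 0.181 and 0.125 in edgeR).

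Against WT-Nut3, the fitted change was above 0 for 33 of 34 members with a median of 1.16, and no member was called by edgeR (0.00443% of all genes) or DESeq2 (0.031%). An unadjusted *P*-value under 0.05 was reached by 22 members in edgeR, all higher, and by 4.87% of all genes. KO-Nut3 was higher without overlap for 9 members, against 5.3% of all genes. *Slc13a4* and *Angptl2* passed when WT-Nut3 RH9 was left out, a fit that called 0.0310% of all genes. Without KO-Nut3 RH8 the median was 0.72 and 31 members were above 0.

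**Figure D4:**
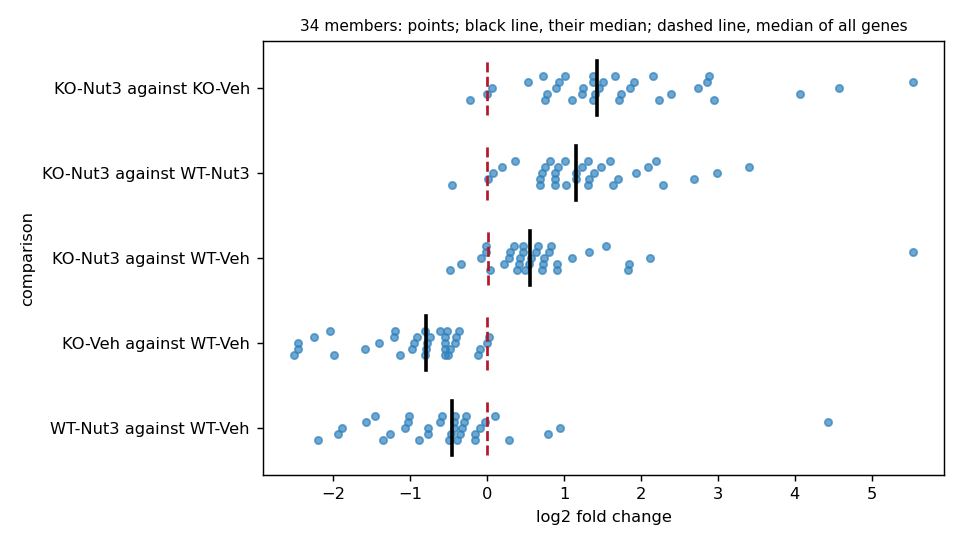
Each point is the log2 fold change of 1 of the 34 members in 1 of 5 comparisons, with a black line at their median and a dashed line at the median of all genes tested. Members lie mostly right of 0 wherever KO-Nut3 is the first group (medians 1.43, 1.16 and 0.56) and left of 0 when KO-Veh or WT-Nut3 is set against WT-Veh (-0.79 and -0.45). The point beyond 4 in the WT-Nut3 row is *Tcf21*, whose WT-Veh libraries had no counts.

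The interaction term, fitted on the 12 libraries together, asks whether Nutlin-3 acted differently in the 2 genotypes. It was positive for 33 of 34 members with a median of 1.91, and an unadjusted *P*-value under 0.05 was reached by 26 members in edgeR and 28 in DESeq2, against 4.17% and 2.93% of all genes. No member was called by either tool, and no gene at all was in edgeR (0%), against 0.00443% in DESeq2. *Meox1* was the exception in direction, at -0.32. Among members with no group at the floor, the largest fitted interactions were those of the transporter *Slc47a1*, at 5.16, and the forkhead gene *Foxc2*, at 4.81, each with an adjusted *P*-value of 0.993 in edgeR. In WT-Veh, *Slc47a1* had 0.179, 6.30 and 1.39 CPM and *Foxc2* 0.239, 2.99 and 1.54 CPM, both highest in RH5. The term uses WT-Veh RH5 and KO-Nut3 RH8, the libraries that moved the medians of the comparisons above.

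Other genes of meningeal and perivascular fibroblasts, 23 in number and outside the list of 34, moved in part with it. In KO-Nut3 against KO-Veh, 3 of 23 passed in edgeR, all higher (0.195% of all genes were), with 22 of 23 fitted above 0 and a median of 0.92. DESeq2 called 10 of them higher, against 1.25% of all genes. The 3 were *Igf2*, *Bmp6* and *Igfbp2*, which encode secreted growth factors and a binding protein, and the study had singled out *Igf2* and *Bmp6* from these same libraries. *Igfbp2* had 21.0, 31.4 and 18.0 CPM in WT-Veh, 19.1, 100.02 and 15.6 CPM in WT-Nut3, 23.1, 16.5 and 22.3 CPM in KO-Veh, and 87.5, 53.0 and 112 CPM in KO-Nut3. Its log2 fold change against KO-Veh was 2.03 (adjusted *P*-value 0.0130 in edgeR), and WT-Nut3 RH9 was as high as the KO-Nut3 libraries. *Igf2*, encoding insulin-like growth factor 2, had 0.298, 3.26 and 0.772 CPM in WT-Veh, 1.01, 3.82 and 0.280 CPM in WT-Nut3, 1.03, 0.564 and 0.683 CPM in KO-Veh, and 5.43, 5.84 and 4.28 CPM in KO-Nut3. WT-Nut3 RH9 was its highest library outside KO-Nut3. Its log2 fold change against KO-Veh was 2.75 (adjusted *P*-value 0.00718 in edgeR), and 64.5% of its exon bases are shared with other annotated genes. *Bmp6*, a ligand of the TGF-beta family, had 6.27, 18.3 and 7.77 CPM in WT-Veh, 8.67, 21.4 and 6.56 CPM in WT-Nut3, 7.64, 5.19 and 6.72 CPM in KO-Veh, and 24.3, 26.3 and 23.9 CPM in KO-Nut3. The KO-Nut3 libraries were alike and above the others, with a log2 fold change of 1.93 against KO-Veh (adjusted *P*-value 0.00130 in edgeR).

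Of the 4 most abundant of the 23, only *Igfbp2* was called. *Pdgfra*, a growth factor receptor gene that oligodendrocyte precursors also express, had 57.8, 66.5 and 60.4 CPM in WT-Veh, 56.3, 53.0 and 55.9 CPM in WT-Nut3, 56.9, 49.8 and 56.7 CPM in KO-Veh, and 51.8, 62.4 and 56.0 CPM in KO-Nut3. *Dcn*, encoding decorin, had 40.1, 58.2 and 46.1 CPM in WT-Veh, 41.9, 47.4 and 28.4 CPM in WT-Nut3, 43.0, 56.8 and 56.6 CPM in KO-Veh, and 20.3, 56.5 and 44.4 CPM in KO-Nut3. *Itih5*, a hyaluronan-associated matrix gene, had 34.2, 52.9 and 49.99 CPM in WT-Veh, 40.3, 36.6 and 38.8 CPM in WT-Nut3, 37.3, 33.8 and 42.8 CPM in KO-Veh, and 41.4, 52.7 and 43.0 CPM in KO-Nut3. KO-Nut3 and KO-Veh overlapped for all 3, *Dcn* was lowest of all in KO-Nut3 RH6, and the fitted changes in KO-Nut3 against KO-Veh were 0.06, -0.37 and 0.27 (adjusted *P*-values 0.908, 0.792 and 0.646 in edgeR). Of the 23, 9 had WT-Veh RH5, KO-Nut3 RH6 and KO-Nut3 RH8 as their 3 highest libraries, as 20 of the 34 members did.

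Markers of other cell types moved with the same comparison. All 14 genes of choroid plexus epithelium had a fitted change above 0 in KO-Nut3 against KO-Veh, with a median of 4.91. Of these, 5 were called by edgeR (0.195% of all genes called higher) and 13 by DESeq2 (1.25%). The study had singled out *Aqp1* and *Tmem72* from these same libraries, so these counts are not independent of them. The 14 genes summed to 42.4, 44.5 and 34.4 CPM in WT-Veh and to 47.6, 4888 and 59.5 CPM in WT-Nut3. The sums were 35.5, 46.8 and 57.9 CPM in KO-Veh and 3658, 396 and 5223 CPM in KO-Nut3. In the 4 libraries with high sums most of this was the carrier gene *Ttr*, at 4213 CPM in WT-Nut3 RH9 and 4518 CPM in KO-Nut3 RH13, and *Folr1* ranged from 0.179 CPM in WT-Veh RH2 to 35.6 CPM in KO-Nut3 RH13. The libraries with the most choroid plexus markers were only in part those with the highest sums of the members. WT-Veh RH5, the second highest for the summed members without *Ptgds*, had choroid plexus markers at the level of the other WT-Veh libraries, and KO-Nut3 RH8, the highest, had the lowest choroid plexus sum of its group. *Angptl2*, *Coch*, *Dpep1*, *Tcf21* and *Igfbp2* had their highest values in WT-Nut3 RH9 or KO-Nut3 RH13, where choroid plexus markers were high. These 2 libraries were the highest for 2.94% and 8.82% of the members, against 6.43% and 8.64% of all genes, so the number of such members is not read as a result. KO-Nut3 RH6 also had high choroid plexus markers, and *Bnc2* and *Twist1* were highest there. The part of choroid plexus RNA in the change of these genes was not tested.

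**Figure D5:**
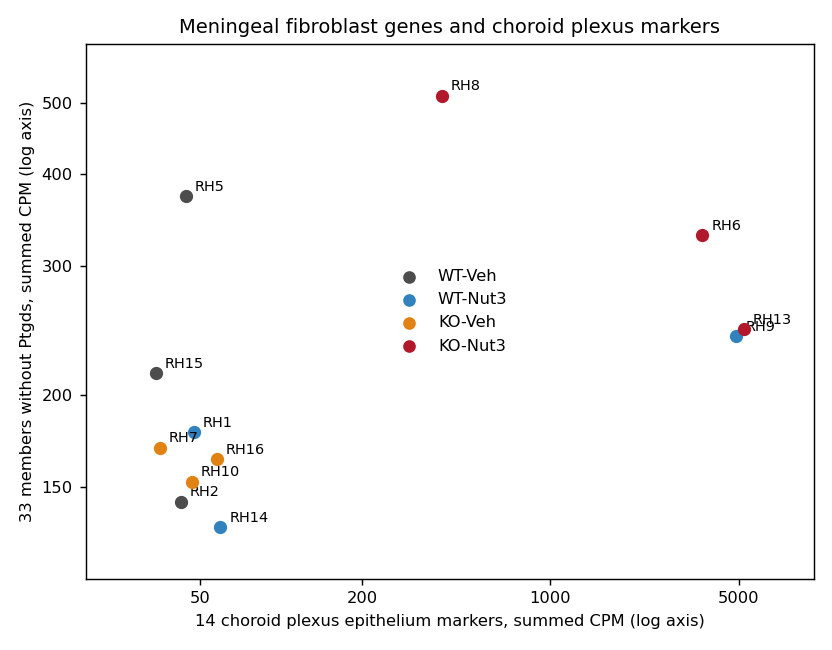
Summed CPM of the 33 members other than *Ptgds* (vertical) against the summed CPM of 14 choroid plexus epithelium markers (horizontal) in each of the 12 libraries, on log axes, coloured by group and labelled with the animal number. WT-Veh RH5 (374 CPM) and KO-Nut3 RH8 (512 CPM) are high in members with 44.5 and 396 CPM of choroid plexus markers, while WT-Nut3 RH9 and KO-Nut3 RH13 have 4888 and 5223 CPM of these markers and 241 and 246 CPM of members.

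Macrophages of the brain borders, which live in the meninges, shared part of the library order of the members. Their 7 genes, led by *Mrc1*, summed to 4.95, 13.5 and 8.86 CPM in WT-Veh, 7.55, 10.7 and 5.49 CPM in WT-Nut3, 6.86, 5.02 and 8.54 CPM in KO-Veh, and 15.6, 21.1 and 8.34 CPM in KO-Nut3. The 3 highest sums were those of KO-Nut3 RH8, KO-Nut3 RH6 and WT-Veh RH5, as for most members, while KO-Nut3 RH13 lay below WT-Veh RH15 and KO-Veh RH16. *Pf4* and *Ms4a7* were highest in WT-Veh RH15 and *Lyve1* in WT-Nut3 RH9. All 7 had a fitted change above 0 in KO-Nut3 against KO-Veh with a median of 0.88, 0 were called in edgeR (0.195% of all genes were higher), 3 fell under 0.05 before adjustment (7.6%), and DESeq2 called 1 (1.25%).

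The 6 microglia genes, led by *Csf1r*, summed to 235 to 298 CPM, the 9 endothelial genes, led by *Flt1*, to 264 to 345 CPM, and the 9 genes of pericytes and smooth muscle, led by *Rgs5*, to 149 to 225 CPM. The endothelial and mural sums were highest in KO-Nut3 RH8. The 8 oligodendrocyte genes, led by *Mbp*, summed to 3628 to 6192 CPM, and WT-Veh RH5 and KO-Nut3 RH8, the 2 libraries with the most *Ptgds*, had 4278 and 5274 CPM. The 6 astrocyte genes, led by *Slc1a3*, summed to 1327 to 1724 CPM, the 8 ependymal genes, led by *Foxj1*, to 19.8 to 66.9 CPM, and the 5 genes of blood, led by *Hbb-bs*, to 42.2 to 84.7 CPM. None of these lists had a gene called by edgeR or DESeq2 in KO-Nut3 against KO-Veh. All 8 ependymal genes had a fitted change above 0 there, with a median of 0.63, and 3 fell under 0.05 before adjustment in edgeR, against 7.6% of all genes. Against WT-Veh, the median of the ependymal genes in KO-Nut3 was 1.28, edgeR called 0 of 8 and DESeq2 called 6 higher, against 0.904% of all genes. Of the 9 endothelial genes, 7 had a fitted change above 0 in KO-Nut3 against KO-Veh, with a median of 0.22, and 5 were higher without overlap, where 7.85% of all genes were. All 6 thalamic genes tested were above 0 in that comparison, with a median of 0.65, and 2 fell under 0.05 before adjustment in edgeR. All 6 hippocampal neuron genes were below 0, with a median of -0.18. No gene of these 2 lists was called there by edgeR or DESeq2. The part of these cell types in the differences of the members was not tested.

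Promoter sequence was examined for what the members share. RefSeq start sites of 28 of the 34 genes gave 32 promoters, and the 250 bases before each start were searched on both strands for 3 short motifs. The forkhead motif GTAAACA (reverse TGTTTAC) was in 0 of 32, and in 3.17% of all 32851 promoters. The E-box CAGCTG, the same on both strands and of the kind bound by factors such as TCF21, was in 6 of 32, or 18.8%, against 13% of all promoters. The 6 genes were *Angptl2*, *Islr*, *Nupr1*, *Ogn*, *Ptgds* and *Slc6a13*. The TATA motif TATAAA (reverse TTTATA) was in 4 of 32, or 12.5%, against 12.4%. The 3 motifs were searched separately, so that matches may overlap, and a match is a description and not a bound site.

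Stretches before the start are shown for the 3 genes called in KO-Nut3 against KO-Veh and for *Ptgds* and *Fmod*, 2 members of the set highest in WT-Veh RH5, KO-Nut3 RH6 and KO-Nut3 RH8, so that genes with different library orders can be set side by side. They are from RefSeq on GRCm38.p6, written 5′ to 3′ on the gene's strand and ending at the start, less any bases that lie in an annotated exon. Capitals mark the E-box. They lie at chr6:35308132-35308376 (minus) for *Slc13a4*, chr2:33215711-33215960 (plus) for *Angptl2*, chr12:51593091-51593340 (plus) for *Coch*, chr2:25469843-25469999 (minus) for *Ptgds* and chr1:134037004-134037253 (plus) for *Fmod*.
Slc13a4: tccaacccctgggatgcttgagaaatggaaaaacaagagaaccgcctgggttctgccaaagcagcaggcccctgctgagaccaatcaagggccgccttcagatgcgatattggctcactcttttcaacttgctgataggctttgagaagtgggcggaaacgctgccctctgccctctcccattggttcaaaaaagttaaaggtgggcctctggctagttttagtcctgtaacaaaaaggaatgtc
Angptl2: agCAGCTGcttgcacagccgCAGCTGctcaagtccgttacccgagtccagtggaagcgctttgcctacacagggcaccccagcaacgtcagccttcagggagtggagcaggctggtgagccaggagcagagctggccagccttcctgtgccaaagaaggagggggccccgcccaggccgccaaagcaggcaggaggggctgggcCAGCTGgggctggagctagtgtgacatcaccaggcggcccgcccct
Coch: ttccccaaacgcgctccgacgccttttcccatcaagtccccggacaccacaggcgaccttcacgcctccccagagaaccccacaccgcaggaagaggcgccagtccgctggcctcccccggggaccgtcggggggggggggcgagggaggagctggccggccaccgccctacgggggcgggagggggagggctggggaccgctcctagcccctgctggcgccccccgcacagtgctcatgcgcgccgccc
Ptgds: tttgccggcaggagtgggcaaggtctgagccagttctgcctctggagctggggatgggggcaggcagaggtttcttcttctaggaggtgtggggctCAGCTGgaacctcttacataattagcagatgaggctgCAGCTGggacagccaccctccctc
Fmod: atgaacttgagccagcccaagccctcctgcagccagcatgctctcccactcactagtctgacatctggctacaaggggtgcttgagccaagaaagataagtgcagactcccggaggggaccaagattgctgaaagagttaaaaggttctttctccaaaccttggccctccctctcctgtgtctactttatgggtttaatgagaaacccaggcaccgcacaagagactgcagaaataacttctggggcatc

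*Angptl2* holds 3 E-boxes and *Ptgds* 2 in the stretch shown, and *Slc13a4*, *Coch* and *Fmod* hold none. The stretches differed in base composition, from 50.6% G and C in *Slc13a4* to 74.8% in *Coch*. The stretch of *Ptgds* lies inside the gene span given earlier, so the RefSeq start used for it is not the outer end of that span.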

How the data were processed

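Reads were mapped to mm10 with STAR by the authors (version not given in the sources used here), who deposited raw counts of reads per gene for each library. The labels give a single-read layout and the methods paired-end reads. Counts over both strands were used, since the first strand held 50.1% to 50.4% of reads, and 77.4% to 78.8% of reads fell on genes. A table of the whole series with 12 columns whose names match no label was not used. Genes with more than 20 counts in total were tested with edgeR 4.0.16 (R 4.3.3, TMM, quasi-likelihood, two-sided, Benjamini-Hochberg, threshold 0.05), with 6 libraries in each fit of a pair of groups. DESeq2 1.42.0 was the alternative test. The standard error is the log2 fold change divided by the square root of *F*. Levels are CPM, log2 values used a prior count of 1, and the floor of 3 counts per library (0.149 to 0.179 CPM) covers counting error only. RPKM used exon lengths of GENCODE M21. Each library is 1 animal. The members and all lists were chosen with earlier results of these data known. Members given library by library are those called in any comparison, the 6 with the highest mean CPM, and the 2 highest of each role; of the other fibroblast genes, those called and the 4 highest. Other genes were named after their values were seen. The tests were also run on simulated data, whose outcome is not given here and supports no result.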

Additional observations from a re-analysis of the deposited data

Results flagged for a closer look

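In 3 genes the effect of genotype pointed in opposite directions under vehicle and under Nutlin-3, with every library of one group on one side of the other group each time. They were 2 of the 34 members and 1 of the 23 other fibroblast genes, and 73 of all 22592 genes tested, or 0.323%, showed such opposite separations. For the effect of Nutlin-3 in the 2 genotypes, opposite separations were shown by 0 of 34 members and 0 of 23 other fibroblast genes. The share of all genes was 0.332% there. *Osr1*, a zinc finger transcription factor of mesenchyme, had a log2 fold change of -0.97 in KO-Veh against WT-Veh and 0.89 in KO-Nut3 against WT-Nut3. *Ranbp3l* had -0.81 and 0.71. *Lum*, the proteoglycan lumican and one of the other fibroblast genes, had -0.35 and 1.02. The difference was tested only as the interaction over all 12 libraries, which was 1.86 for *Osr1*, 1.52 for *Ranbp3l* and 1.38 for *Lum*, with adjusted *P*-values in edgeR of 0.993 for all 3.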

How the results depend on the processing

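No paired analysis was possible because no animal number is shared between groups. In KO-Nut3 against KO-Veh, the 3 members called in edgeR became 14 with DESeq2 (1.28% of all genes called), 25 with every gene of at least 1 count tested (1.51%), 0 with all 12 libraries in one fit (0%), and 2 to 11 with 1 library left out; the 3 other fibroblast genes became 10, 16, 0 and 1 to 5. With every gene tested, members called were 17 in KO-Veh against WT-Veh (0.757% of all genes), 11 in WT-Nut3 against WT-Veh (0.693%), 3 in KO-Nut3 against WT-Veh (1.16%), 3 in KO-Nut3 against WT-Nut3 (0.106%) and 25 for the interaction (0.810%), in place of 0. DESeq2 gave 2 in KO-Nut3 against WT-Veh (1.03%). With 1 library left out, that comparison gave 0 to 1 (*Angptl2* without WT-Veh RH5, *Coch* without KO-Nut3 RH8) and KO-Nut3 against WT-Nut3 gave 0 to 2. The counts against WT-Veh are not set against the share of all genes in those fits, so nothing is read from them. The 1 other fibroblast gene left without KO-Veh RH10 or RH16 was *Bmp6*. A term for the animal number (up to RH8, or from RH9) left the members called at 3, 0, 0, 0, 0 and 0. In KO-Nut3 against KO-Veh, the fit with this term called 20 of all genes, or 0.0885%, against 45, or 0.199%, in the main fit. *Slc13a4*, *Angptl2* and *Coch* lost the threshold with all 12 libraries in one fit, at adjusted *P*-values of 0.308, 0.308 and 0.173. *Prrx1*, at 0.00 in KO-Nut3 against KO-Veh, took the other sign with DESeq2 (-0.00156), with DESeq2 size factors (-0.00164) and with the animal number term (-0.0232), and ranged from -0.0872 to 0.125 with 1 library left out, as *Cemip* did from -0.00638 to 0.169. The causes were not tested. At these depths, members such as *Tcf21* and *Bnc2* rest on few counts.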
